A study of Mus musculus with 469 samples.

Results

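Sox2, Sox4, Sox9 and Sox11 are 4 of the 23281 genes measured in single cells of the mouse olfactory epithelium, and 4 of the 20 Sox family genes in the tables. They were chosen by name, as the Sox genes that mark stem cells and supporting cells (Sox2, Sox9) and young neurons (Sox4, Sox11). Earlier results of these data were known at that choice. Sox genes encode transcription factors that bind DNA through a shared HMG box. Sox2, a SoxB1 factor, is known for keeping progenitors undifferentiated, and in the adult olfactory epithelium it is found in basal stem cells and in sustentacular cells, the glia-like supporting cells at the surface. Sox9, a SoxE factor, is known in the olfactory mucosa for Bowman's glands and ducts and elsewhere for glial and epithelial progenitors. Sox4 and Sox11 are SoxC factors, switched on in cells that commit to a neuronal fate and known to activate early neuronal genes such as Tubb3 and Dcx.

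The study captured single cells on the Fluidigm C1 microfluidic system, made cDNA from their polyA RNA and built Nextera XT libraries in 6 groups, all from animals of 8 weeks. The 3 Neurog1 sorts were eGFP-positive cells of the FVB Neurog1-eGFP strain, in which eGFP follows Neurog1, the factor of immediate neuronal precursors. They came from uninjured epithelium (61 libraries) and from epithelium 5 days (51) and 14 days (26) after olfactory bulbectomy, removal of the bulb that olfactory neurons project to. The 2 OMP sorts were eGFP-positive cells of the B6 OMP-eGFP strain, in which eGFP follows Omp, the marker of mature olfactory sensory neurons, taken 14 days after bulbectomy (50) or after transplantation and engraftment (89). The reference was unsorted, uninjured epithelium of B6;129SF1/J (F1) wildtype mice, in 2 runs of 96 libraries. Each sort differs from the reference in strain as well as in gate, and the OMP sorts differ from the Neurog1 sorts in both. The contributions of strain and gate cannot be told apart in any of these comparisons. The labels name no animal and do not describe the host of the engrafted cells, so each group counts as 1 sample and no difference below has a test or a replicate check. The text gives values per cell, shares of cells and ratios of group means, which describe these libraries.

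Libraries that held at least 1000 genes were kept: 46, 48 and 25 cells in the Neurog1 sorts (uninjured, 5 days, 14 days), 42 and 29 in the OMP sorts (14 days, engrafted) and, in the reference, 68 from run 1 and 70 from run 2. Median depth by group ran from 501827 fragments (engrafted) to 1347935 (OMP sort at 14 days). In the engrafted group 60 of 89 libraries were not kept. In reference run 1, 9 libraries held more than 10000 genes and carried markers of several cell types at once, so reference values follow with and without them. Neuronal and sustentacular RNA also met in most of the other reference cells, as described below, so those cells are not read as single cell types. Levels are counts scaled to a common total per cell (counts per 10 to the power of 6, CPM), a gene's share of the summed values of its cell, and a gene is called found in a cell at 10 CPM or more. At that limit 1 fragment decides the call in 6 shallow cells. The markers fitted the Neurog1 gate in part: Neurog1 itself was found in 23 of 46, 18 of 48 and 12 of 25 sorted cells, in 0 of the 71 OMP-sorted cells and in 6 reference cells, all of them among the 9 libraries. In the OMP sort at 14 days Omp was found in 41 of 42 cells, but only 17 of them reached 1000 CPM, and 37 of 42 also held Gap43, a growth cone protein of immature neurons.

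The 4 genes share sequence inside the HMG box, which matters here because short reads from identical stretches could be assigned to the wrong gene. The same 81 bases of the coding strand, 5′ to 3′, are shown for each gene, from GENCODE M21 transcripts on GRCm38. Capitals mark bases that differ from Sox2.

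Sox2: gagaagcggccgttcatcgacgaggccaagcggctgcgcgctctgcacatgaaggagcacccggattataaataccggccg

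Sox4: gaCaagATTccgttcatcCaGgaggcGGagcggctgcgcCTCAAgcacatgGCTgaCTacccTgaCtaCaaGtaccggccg

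Sox9: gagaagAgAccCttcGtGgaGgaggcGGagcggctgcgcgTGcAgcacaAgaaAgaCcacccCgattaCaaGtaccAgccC

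Sox11: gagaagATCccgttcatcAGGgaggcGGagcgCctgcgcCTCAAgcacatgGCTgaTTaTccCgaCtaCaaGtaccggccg

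Sox4 and Sox11 matched at 73 of these 81 bases, while Sox2 matched Sox4 at 59, Sox9 at 62 and Sox11 at 57. The longest identical coding run between Sox4 and Sox11 was 48 bases, and the longest shared by Sox2 with another Sox gene was 38 bases (Sox1 and Sox21). In that annotation Sox2 (chromosome 3), Sox4 (chromosome 13) and Sox11 (chromosome 12) each have 1 exon and Sox9 (chromosome 11) has 3. The files use the mm9 build, so no positions are given. Sox2 lies inside the longer noncoding gene Sox2ot on the same strand, which was found in 5 cells of all groups, 3 of them with Sox2. Sox4 overlaps Gm26735 on the opposite strand, and Nextera libraries do not mark strand. The gene length implied by the authors' count and FPKM values was 8595 bases for Sox11, 4065 for Sox9, 2300 for Sox2 and 2855 for Sox4, the last only 59.5% of its GENCODE M21 transcript of 4795 bases.

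Sox11 was the Sox gene of the neuronal sorts. It was found in 45 of 46 cells of the uninjured Neurog1 sort (exact Clopper-Pearson 95% interval 88.5 to 99.9%), in 48 of 48 at 5 days (92.6 to 100%) and in 25 of 25 at 14 days (86.3 to 100%). Per cell, Sox11 ran from 6.76 CPM through a median of 6070 to 44946 in the uninjured sort, from 23.8 through 6199 to 35756 at 5 days, and from 1166 through 5926 to 24318 at 14 days. The 3 ranges overlapped almost entirely and the medians lay close together. On the log2 scale of mean CPM + 1, Sox11 differed by -0.15 between 5 days and uninjured, by -0.09 between 14 days and uninjured and by 0.05 between 14 and 5 days, so it did not pass 2-fold in any of these. All intervals here and below cover the counting of cells only, since C1 libraries carry no molecular identifiers and cells of a group may come from few animals.

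**Figure D1:**
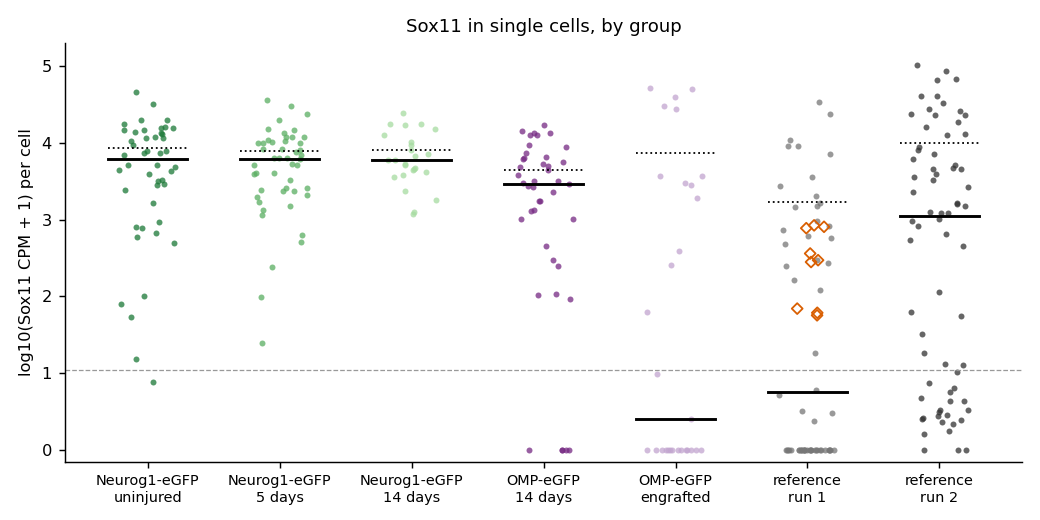
Sox11 in every kept cell of each group, on a log10 axis of CPM + 1 (solid line, median; dotted line, mean; dashed line, 10 CPM; open orange diamonds, the 9 reference libraries over 10000 genes). The 3 Neurog1 sorts form high bands with medians of 5926 to 6199 CPM, while the engrafted cells and the reference spread from 0 to the top of the axis.

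In the OMP sort at 14 days, Sox11 was found in 37 of 42 cells (88.1%, 74.4 to 96.02%), from 0 through a median of 2919 to 16972 CPM. All these cells fell within the span of the Neurog1 sort at 14 days or below it, and the mean was 4424 CPM against 7958, a log2 ratio of -0.85. In engrafted OMP cells Sox11 was found in 13 of 29 (44.8%, 26.4 to 64.3%), from 0 through a median of 1.53 to 50720 CPM. That interval lies wholly below the interval of the OMP sort at 14 days, while the engrafted mean, 7294 CPM, was the higher of the pair (log2 ratio 0.72). Share and mean pointed in opposite directions: 5 engrafted cells, at 27011 to 50720 CPM, held 92.5% of the group's summed Sox11. The other 8 cells with Sox11 lay between 61.8 and 3718 CPM, and the mean of the group without the top 5 was 659 CPM.

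The unsorted reference held Sox11 in 81 cells (58.7%, 50.01 to 67.004%), from 0 through a median of 140.5 to 101683 CPM. Its runs stood apart: 33 of 68 cells (48.5%) with a mean of 1698 CPM in run 1, and 48 of 70 (68.6%) with a mean of 9867 CPM in run 2. Without the 9 libraries the reference share was 72 of 129 (55.8%), and the 9 libraries themselves held Sox11 in every case at a narrow 55.8 to 839 CPM. Sox11 in the uninjured Neurog1 sort over the reference gave a log2 ratio of 0.54 (means 8483 and 5842 CPM), but 2.32 against run 1 alone and -0.22 against run 2 alone. The difference in means from the reference thus rested on the run, while the share was higher in the sort than in either run.

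**Figure D2:**
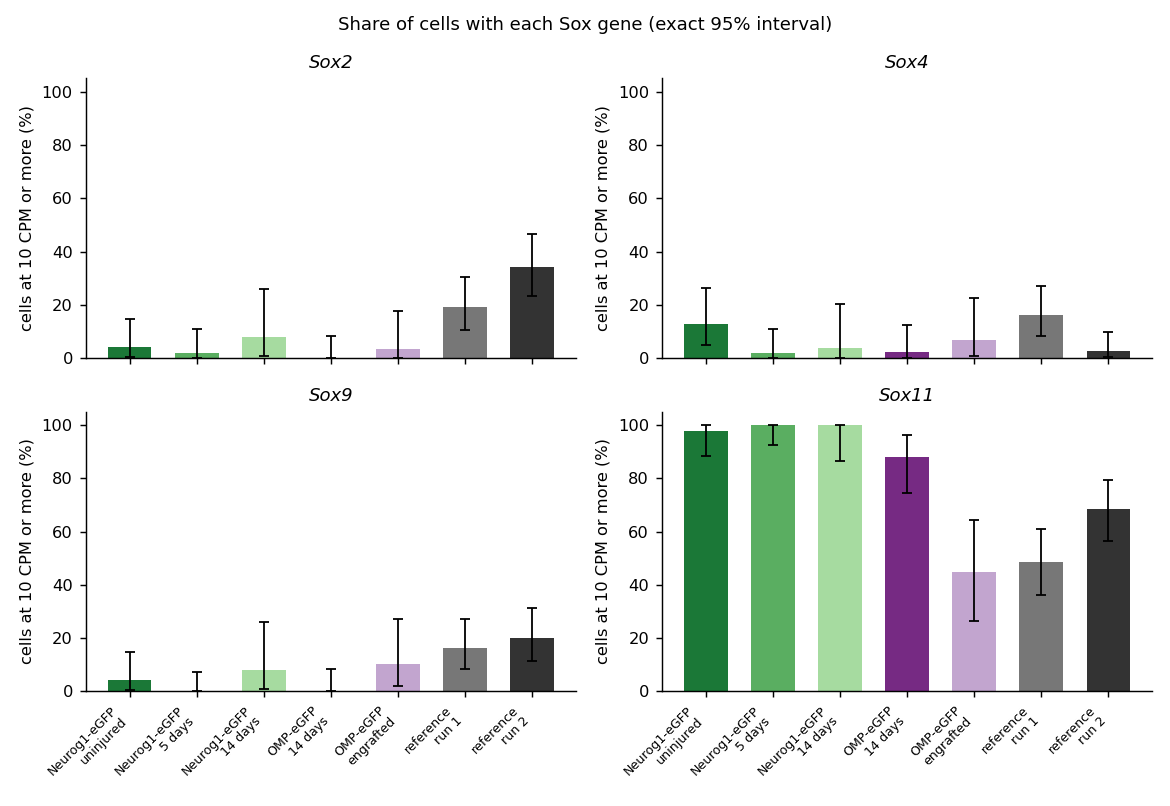
Share of cells in which each of the 4 genes was found at 10 CPM or more, per group in percent, with exact 95% intervals. Sox11 is near the top in the 3 Neurog1 sorts and at 44.8% in engrafted cells. In reference runs 1 and 2, Sox2 stands at 19.1% and 34.3% and Sox9 at 16.2% and 20%.

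Within the Neurog1 sorts, Sox11 varied with Neurog1 mRNA. In the uninjured sort the 23 cells with Neurog1 ran from 939 to 44946 CPM of Sox11 with a mean of 12896, against a mean of 3705 and a range of 6.76 to 11403 in the 16 cells with Gap43 and no Neurog1. At 5 days the means were 12479 CPM in 18 cells with Neurog1 (1160 to 35756) and 4438 in 25 cells with Gap43 alone (96.9 to 11810). At 14 days they were 9478 CPM in 12 cells (1237 to 24318) and 6041 in 12 cells (1166 to 16966). The ranges overlapped in each sort, and the mean was higher beside Neurog1 than beside Gap43 alone in all 3. Cells with neither gene were few (7, 5 and 1) and had Sox11 means of 4905, 6507 and 12708 CPM.

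Sox11 also went with low Omp. In the uninjured Neurog1 sort, 13 cells at 1000 CPM of Omp or more had a mean Sox11 of 2430 CPM, and the other 33 had 10867. In the OMP sort at 14 days the same split gave 2629 CPM in 17 cells and 5644 in 25, and in engrafted cells 353.6 CPM in 16 and 15836 in 13. Sox11 was found in 5 of the 16 engrafted cells with Omp at 1000 CPM or more, and in 8 of the other 13. The cells on both sides of the Omp limit overlapped in Sox11 in each of these groups.

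Gap43 divided the engrafted cells more sharply. Sox11 was found in 11 of 12 engrafted cells with Gap43 (mean 17461 CPM) and in 2 of 17 without it (mean 117.3 CPM). All 5 cells at 27011 CPM or more held Gap43, and none of them reached 1000 CPM of Omp. In the OMP sort at 14 days 37 of 42 cells held Gap43, and Sox11 was found in 33 of these and in 4 of the 5 without. Dcx, a microtubule protein of migrating neurons, was found in 11 of the 13 engrafted cells with Sox11 and in 6 of the 16 without. Stmn1, a tubulin-binding protein of growing neurites, was found in 11 of 13 and 5 of 16. Gng8, which encodes a gamma subunit of a G protein, was found in 6 of 13 and 0 of 16. Cyp2g1, a sustentacular enzyme, went the other way, at 0 of 13 and 3 of 16. Sec14l3, another sustentacular gene, was found in 1 of 13 and 2 of 16, with means of 46.2 CPM beside Sox11 and 9.29 without it. Of the mature neuron genes, Stoml3 was found in 10 of 13 and 13 of 16 and Cnga2 in 9 of 13 and 11 of 16. Omp was found in 9 of 13 and 13 of 16, and Adcy3 in 4 of 13 and 9 of 16. Median depth was 487266 fragments in cells with Sox11 and 578097 in cells without it, while the median number of genes was 2687 with Sox11 and 1904 without it. The part of this in the counts above was not tested.

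**Figure D3:**
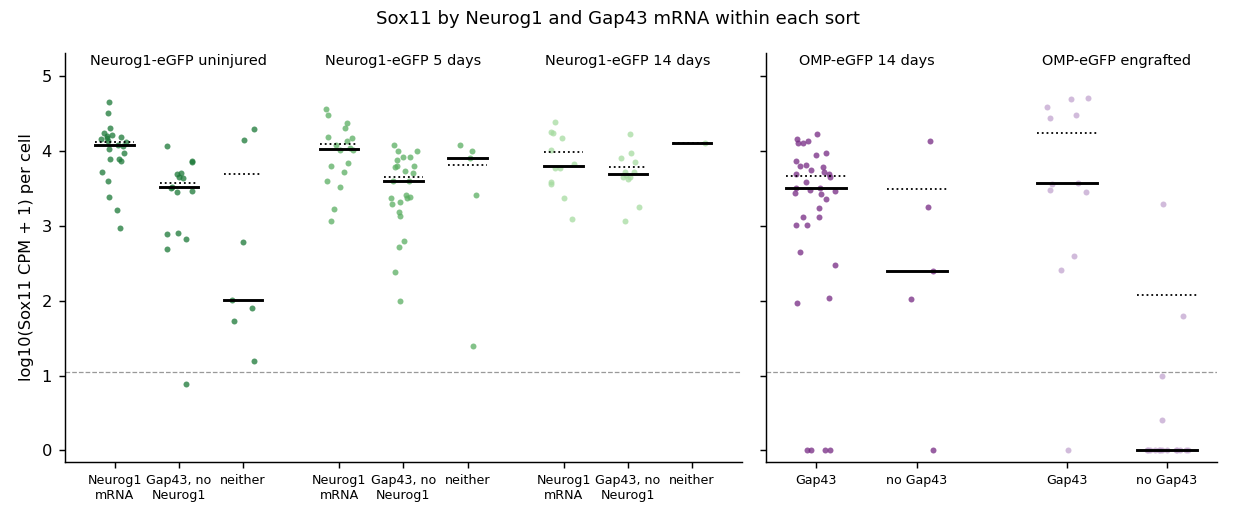
Sox11 per cell on a log10 axis of CPM + 1, with the Neurog1 sorts divided by Neurog1 and Gap43 mRNA and the OMP sorts by Gap43 mRNA (solid line, median; dotted line, mean; dashed line, 10 CPM). Engrafted cells separate by Gap43, with 11 of 12 above the limit when it is present and 2 of 17 when it is absent.

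Cells of all groups were also clustered on 2000 variable genes with every Sox gene left out, into 12 clusters. Sox11 was found in 49 of 49 cells of the immature olfactory sensory neuron-like cluster (cluster 6, mean 10378 CPM), in 47 of 47 of cluster 8, which carried 4 of 6 precursor markers and is left unnamed (mean 14187), and in 9 of 9 of cluster 7, which carried 10 of 10 G2 and M phase markers (mean 26573, 7200 to 101683). In the 2 mature olfactory sensory neuron-like clusters, 5 and 10, it was found in 11 of 36 and 9 of 28 cells, with means of 838 and 316.9 CPM. Cluster 9, unnamed and the main cluster of the OMP sort at 14 days (25 of 42 cells), lay between, with Sox11 in 40 of 41 cells and a mean of 3683 CPM. The highest cell of cluster 7 held 42.5% of its Sox11 and none of the 10 G2 and M phase markers, and the mean of the other 8 cells was 17184 CPM. Among clusters 5 to 10 the mean was lowest in the 2 mature olfactory sensory neuron-like clusters.

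Within a cluster the group means were spread. In cluster 6 the mean was 7481 CPM in 8 uninjured cells, 4593 in 22 cells at 5 days, 6406 in 11 at 14 days, 42179 in 4 engrafted cells and 27104 in 4 reference cells. In cluster 8 it was 13281 CPM in 20 uninjured cells, 13347 in 15 at 5 days, 8538 in 9 at 14 days and 41381 in 3 reference cells. Of the 29 engrafted cells, 15 were in the mature-like clusters 5 and 10, and Sox11 was found in 1 of 5 and 2 of 10 of them. Cell numbers per group and cluster are small, and the clusters are ranges of this data set rather than sorted types.

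**Figure D4:**
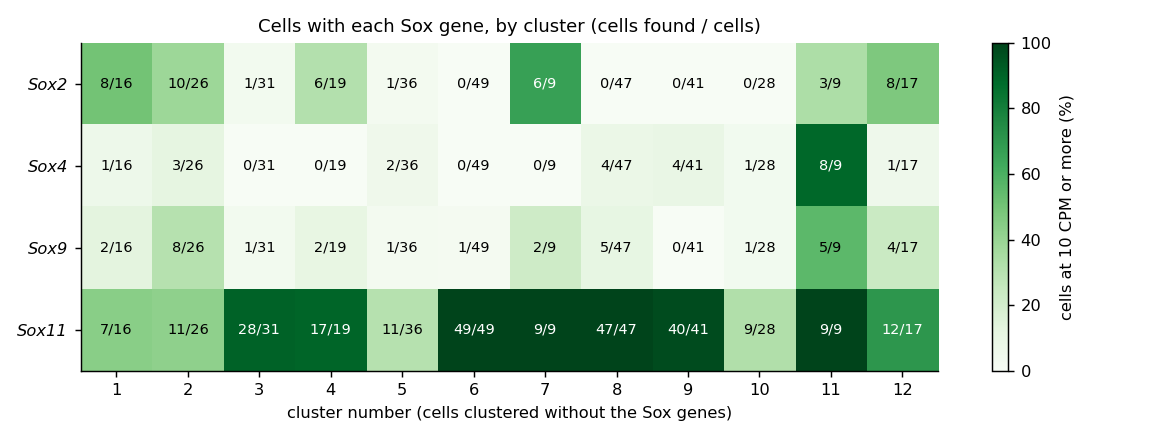
Cells in which each of the 4 genes was found, out of the cells of each of the 12 clusters built without Sox genes; shading gives the share. Sox11 is found in all or nearly all cells of clusters 6, 7, 8 and 9. Sox2 is found in 6 of 9 cells of cluster 7, which carries G2 and M phase markers, and in the clusters with sustentacular markers.

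Sox11 was found in clusters with sustentacular markers too. In cluster 1, with 8 of 8 sustentacular markers, it was found in 7 of 16 cells (mean 460.5 CPM), and in cluster 4, which held 19 cells of reference run 2 only and 3 of 8 markers, in 17 of 19 (mean 9201 CPM). In run 2 as a whole, Omp was found in 44 of 48 cells with Sox11 and 21 of 22 without it. The sustentacular marker Sec14l3 was found in 48 of 48 and 22 of 22. Neuronal and sustentacular RNA thus met in most run 2 cells. In run 1 without the 9 libraries, Omp and Sec14l3 were likewise each found in most cells, both with and without Sox11. The source of the Sox11 in cluster 4 was not tested. Reference cells were split by the summed level of 8 sustentacular markers, Cyp2g1, Cyp1a2, Ugt2a1, Sec14l3, Ermn, Krt8, Krt18 and Cbr2. Sox11 was found in 20 of 37 cells below 1000 CPM of this sum, 27 of 40 between 1000 and 10000, and 34 of 61 above, with means of 8677, 8879 and 2130 CPM. The mean was lowest in the highest range. In run 1 without the 9 libraries the shares were 11 of 25, 4 of 11 and 9 of 23, and in run 2 they were 6 of 9, 17 of 23 and 25 of 38. The means from the lowest to the highest range were 3416, 1872 and 258.96 CPM in run 1 without the 9 libraries, and 26082, 14434 and 3262 CPM in run 2.

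Sox2 was a gene of the reference. It was found there in 37 cells (26.8%, 19.6 to 35.01%), with a median of 0 and a highest cell of 374.2 CPM. The share was 13 of 68 (19.1%) in run 1, 24 of 70 (34.3%) in run 2 and 34 of 129 (26.4%) without the 9 libraries. In the sorts it was found in 2 of 46 (4.35%, 0.531 to 14.8%), 1 of 48 (2.08%, 0.0527 to 11.1%) and 2 of 25 (8.00%, 0.984 to 26.03%) Neurog1 cells, in 1 of 29 engrafted cells (3.45%, 0.0873 to 17.8%), and in none of the 42 cells of the OMP sort at 14 days (0 of 42 leaves room for 7.14%). The intervals of the uninjured and 5-day Neurog1 sorts and of both OMP sorts lie below the reference interval, and that of the 14-day Neurog1 sort overlaps it. This rests on run 2 and on pooling the runs. The interval was 10.6 to 30.5% in run 1, which the uninjured, 5-day and engrafted intervals overlap, and 23.3 to 46.6% in run 2. Thinning every cell to 100000 fragments left 2 of 45, 1 of 48, 2 of 25, 0 of 42 and 1 of 26 sorted cells with Sox2, in the same order, and 43 in the reference, leaving out 1, 3 and 2 cells too shallow to thin in the uninjured, engrafted and reference groups.

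Sox2 went with the sustentacular sum in reference cells, as a share and as a mean. It was found in 2 of 37 cells below 1000 CPM of the sum, 10 of 40 from 1000 to 10000 and 25 of 61 above 10000, with mean Sox2 levels of 3.96, 22 and 51.3 CPM. In run 1 without the 9 libraries the counts were 1 of 25, 2 of 11 and 7 of 23, and in run 2 they were 1 of 9, 5 of 23 and 18 of 38, so the order held in each run. These are ranges of a score, and 56 reference cells lay within a factor of 2 of either limit. In the 4 clusters that carried sustentacular markers (1, 2, 4 and 12), Sox2 was found in 29 of 69 reference cells (42.03%, mean 50.4 CPM), and in 5 of 60 other reference cells (8.33%, mean 9.01 CPM), both without the 9 libraries.

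**Figure D5:**
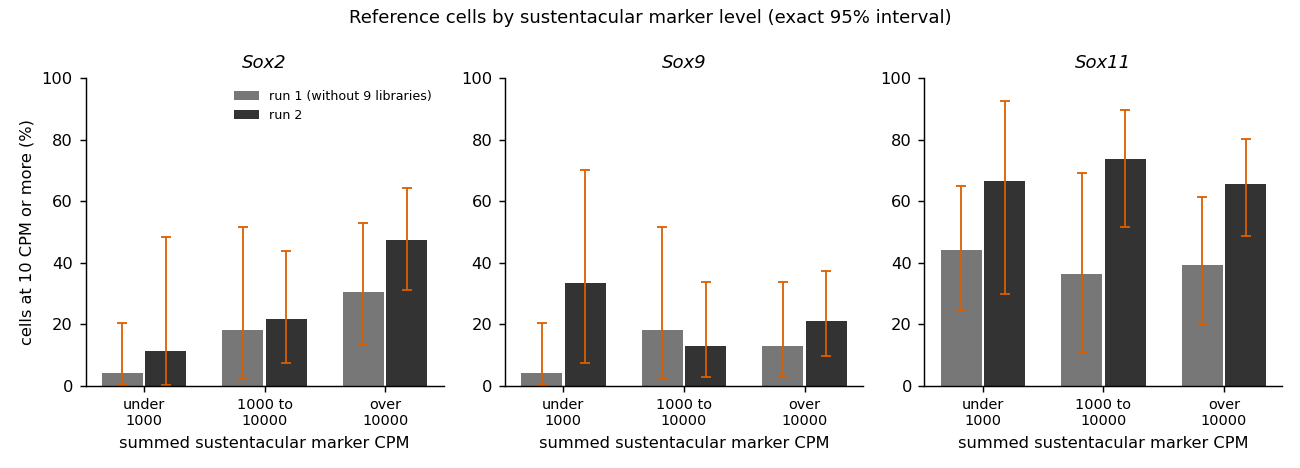
Share of reference cells, in percent with exact 95% intervals, in which Sox2, Sox9 and Sox11 were found, by range of the summed sustentacular markers, for run 1 without the 9 libraries over 10000 genes and for run 2. Sox2 goes up in both runs, from 1 of 25 to 7 of 23 and from 1 of 9 to 18 of 38.

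Each Sox2 cell of the sorts can be described, and 3 of the 5 in the Neurog1 sorts carried division markers. In the uninjured sort 1 cell had 13.7 CPM of Sox2 (17 fragments) beside 4410 CPM of Top2a, the topoisomerase of dividing cells, and 67.7 CPM of Neurog1. The other had 892 CPM, with no Top2a and Neurog1 at 32.3 CPM. At 14 days 1 cell had 230.7 CPM with Mki67, the proliferation antigen, at 858 CPM and Neurog1 at 346.5 CPM. The other had 55.2 CPM (89 fragments) with Top2a at 3273 CPM and Kit, a receptor of globose basal progenitors, at 636 CPM. At 5 days the only Sox2 cell had 37.0 CPM (44 fragments) beside 14035 CPM of Cyp2g1 and 9874 CPM of Sec14l3, both sustentacular genes. The engrafted Sox2 cell had 152.9 CPM (38 fragments), Pax6 at 442.7 CPM, and neither Omp nor Sox11. Across all groups, cluster 7, the cluster with G2 and M phase markers, held Sox2 in 6 of its 9 cells, 3 from these sorts.

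Because single cells carry the sums, Sox2 group means compare poorly. The uninjured Neurog1 mean of 19.7 CPM was 98.5% 1 cell. The means at 5 and 14 days were 0.899 and 11.4 CPM, those of the OMP sorts 0.431 (14 days) and 5.27 (engrafted), and that of the reference 30.1, or 31.1 without the 9 libraries. The log2 ratio to the reference was -0.59 for the uninjured Neurog1 sort and -4.45 without its highest cell.

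Sox9 was found in 25 reference cells (18.1%, 12.1 to 25.6%), with a median of 0 and a highest cell of 390 CPM. Runs 1 and 2 gave 11 of 68 and 14 of 70, and the reference without the 9 libraries 20 of 129 (15.5%). In the Neurog1 sorts Sox9 was found in 2 of 46, 0 of 48 and 2 of 25 cells. At 5 days there was no Sox9 fragment in any cell, which leaves room for a share of 6.25%, inside the interval of the uninjured sort. The OMP sort at 14 days held it in 0 of 42 cells (highest 9.79 CPM), and the engrafted group in 3 of 29 (10.3%, 2.19 to 27.4%). The limits of the 5-day Neurog1 sort and of the OMP sort at 14 days lie below the reference interval, and the intervals of the other sorts overlap it. Run 1 without the 9 libraries had an interval of 3.82 to 20.8%, and both limits fall inside that.

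The Sox9 shares lay closer together across the sustentacular ranges of the reference, a difference from Sox2 that was not tested. Sox9 was found in 5 of 37, 9 of 40 and 11 of 61 cells from the lowest to the highest range, and in 4 of 34, 5 of 34 and 11 of 61 without the 9 libraries. Run 1 without them gave 1 of 25, 2 of 11 and 3 of 23, and run 2 gave 3 of 9, 3 of 23 and 8 of 38. In clusters 1, 2, 4 and 12 Sox9 was found in 13 of 69 reference cells (18.8%), and in 7 of 60 others (11.7%), both without the 9 libraries. The Sox9 means were 38.4 and 10.98 CPM, so the mean was higher in the clusters with sustentacular markers, as for Sox2. Cluster 2, an unnamed cluster with 8 of 8 sustentacular markers and leading genes such as Met, Anxa2 and Lrp2, held the most Sox9 cells, 8 of 26. Markers of Bowman's gland and duct (Aqp5, Bpifa1, Bpifb9b, Muc5ac, Muc5b and Dcpp1) summed to 1000 CPM or more in 7 reference cells, 6 of them among the 9 libraries, and 5 of the 7 held Sox9. The same sum was reached in 2 engrafted cells, neither with Sox9.

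The Sox9 cells of the sorts differed by sort. All 4 in the Neurog1 sorts fell in cluster 8 and held Sox11 (1632 to 4263 CPM), and 3 of them held Neurog1. Their Sox9 levels were 192.8 and 63.1 CPM in the uninjured sort and 67.3 and 286.998 CPM at 14 days, on 50 fragments or more each. The 3 engrafted Sox9 cells, at 54.6, 135.1 and 1142 CPM (39, 100 and 876 fragments), fell in cluster 2 and had Sox11 at 0. In 2 of them Cyp2g1 stood at 2201 and 4616 CPM and Hes1, an effector of Notch signalling, at 70.01 and 209.4 CPM, while Sec14l3 was 0 in both. The third, at 1142 CPM, had no Cyp2g1, Sec14l3 at 135.6 CPM and Omp at 134.3 CPM. The engrafted mean of 45.9 CPM was 85.8% 1 cell.

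Over all groups Sox4 was found in 24 cells, against 32 for Sox9 and 43 for Sox2, but in the 3 Neurog1 sorts it was found in 8, against 4 and 5. It was found in 6 of 46 uninjured Neurog1 cells (13.04%, 4.94 to 26.3%), 1 of 48 at 5 days, 1 of 25 at 14 days, 1 of 42 OMP cells at 14 days and 2 of 29 engrafted cells, 1 of those on a single fragment (74.8 CPM). The medians were 0 in all groups, and the highest cells were 122.1, 16.7, 15.7, 14.7 and 74.8 CPM. The intervals of the 3 Neurog1 sorts overlapped. The 6 uninjured cells stood at 16.5 to 122.1 CPM on 23 to 59 fragments, and 6 of 6 held Sox11, 3 Neurog1 and 3 Omp. In the reference Sox4 was found in 13 cells (9.42%), but 8 of them were among the 9 libraries over 10000 genes (mean 49.5 CPM), and without these it was found in 5 of 129 (3.88%). Of run 1 and run 2, 11 of 68 and 2 of 70 cells held it. The gene length implied for Sox4 falls short of its transcript, and the part of this in the low counts was not tested.

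The 4 genes compare per length in FPKM, the authors' fragment values scaled by gene length and library. Mean Sox11 was 982 FPKM in the uninjured Neurog1 sort, 889 at 5 days, 920 at 14 days, 516 in the OMP sort at 14 days, 847 in engrafted cells and 681 in the reference. Mean Sox2 was 8.27, 0.384, 4.77, 0.182, 2.2 and 13.1 FPKM in the same order. Mean Sox9 was 1.34, 0, 3.49, 0.0592, 11.1 and 6.91 FPKM, and mean Sox4 was 2.44, 0.195, 0.356, 0.305, 1.17 and 1.75 FPKM. Sox11 thus had the highest mean level in each of the 6 groups. Its lead over Sox4, the other SoxC gene, held in each group, also in the reference without the 9 libraries. In the sorts Sox2, Sox4 and Sox9 lay close together relative to the weight of single cells in their means. In the reference they lay apart. Without the 9 libraries the reference means were 13.5 FPKM for Sox2, 6.32 for Sox9 and 0.625 for Sox4. The highest cell held 9.01% of the summed Sox2 CPM of the whole reference.

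The members' ratios of means are read against those of all genes. A gene was measured in a comparison when its mean was 5 CPM or more in either group, and called when its log2 ratio of mean CPM + 1 passed 2-fold. In the uninjured Neurog1 sort over the reference, 22.4% of 11061 genes were higher and 32.6% lower, and of the 4 members 1 was lower (Sox9, -2.14) and 0 higher. Sox4 gave 0.46 there, and 1.56 without the 9 libraries. At 5 days over uninjured, 20.9% of genes were higher and 26.3% lower, and 3 of 4 members were lower: Sox2 (-3.45), Sox4 (-2.37) and Sox9 (-2.71). Behind these stand 2, 6 and 2 uninjured cells against 1, 1 and 0. The Sox2 call ended without the highest cell of each group (-0.21) or with at least 2000 genes (-0.25), and the calls of Sox4 (-0.69) and Sox9 (-0.64) ended with a pseudocount of 10. With Sox9 at 0 in all cells at 5 days, its ratio is set by the pseudocount, and the intervals of the shares overlap.

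At 14 days over uninjured, 22% of genes were higher and 29.9% lower, and of the 4 members Sox9 (1.21) was higher and Sox4 (-2.00) lower. The Sox9 call ended without the highest cell (0.66), from summed fragments (0.81) or with a pseudocount of 10 (0.64), and turned with at least 2000 genes (-0.93). The Sox4 call ended with a pseudocount of 10 (-0.63). Sox2 gave -0.73. At 14 over 5 days, 23.8% were higher and 27.1% lower, and Sox2 (2.71) and Sox9 (3.92) were higher of 3 measured. Both rest on 2 cells at 14 days, and the Sox2 call ended with a pseudocount of 10 (0.98). These 3 comparisons share sorts among them. In engrafted cells over the OMP sort at 14 days, 21.7% of genes were higher and 35% lower, and of 3 members measured Sox2 (2.13) and Sox9 (5.24) were higher, on 1 and 3 engrafted cells. In the OMP over the Neurog1 sort, both at 14 days, 32.4% were higher and 28.6% lower, and Sox2 (-3.12) and Sox9 (-3.61) were lower of 3 measured, each on 2 Neurog1 cells. Leaving out the highest cell of each group moved the 14 days over uninjured value of Sox2 to 1.34, and the engrafted over OMP value of Sox2 to -0.27. With at least 2000 genes the engrafted over OMP values were -0.30 for Sox2 and -0.35 for Sox9. Sox11 stayed within 2-fold in all 6 comparisons at these settings. It passed 2-fold against reference run 1 alone (2.32), in engrafted over OMP cells with at least 2000 genes (1.22) or with all deposited libraries (1.65), and in the OMP over the Neurog1 sort with all deposited libraries (-1.06).

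Markers of supporting cells were lower together with Sox9 in the uninjured Neurog1 sort than in the reference. The summed sustentacular markers had a median of 7798 CPM per reference cell, with 37 reference cells below 1000 CPM, and medians of 0 to 9.93 CPM in the sorts. All 8 markers were lower by more than 2-fold in that sort than in the reference, and their median log2 ratio was -8.52. Between the sorts they mostly went the other way from Sox2 and Sox9. At 5 days over uninjured 6 of 6 measured were higher (median 5.91), and at 14 over 5 days 6 of 6 were lower (-4.57). At 14 days over uninjured 2 of 3 were higher (2.81), the same way as Sox9. In engrafted cells over the OMP sort 4 of 8 were lower (-0.90), and in the OMP over the Neurog1 sort at 14 days 8 of 8 were higher (4.50). The shares of all genes called in the same directions were 32.6%, 20.9%, 27.1%, 22%, 35% and 32.4%, in the order of these comparisons. In the sorts 0 of 46, 4 of 48, 1 of 25, 3 of 42 and 3 of 29 cells reached a sum of 1000 CPM, with highest cells of 690, 55942, 1211, 77209 and 14257 CPM. With the clusters that carried sustentacular markers left out of both groups, a choice made after seeing the data, the ratio of the uninjured Neurog1 sort over the reference was -3.06 for Sox2 and -1.47 for Sox9. That setting also removed the uninjured Neurog1 cell at 892 CPM of Sox2, which had Cyp2g1 and Sec14l3 at 0, so its Sox2 value does not measure the part of supporting cells.

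Genes reported as SoxC targets or expressed early in neurons formed a list of 8. In the uninjured Neurog1 sort over the reference, 5 of 6 measured were higher (Tubb3, Dcx, Stmn2, Stmn3 and Map1b) and 0 lower, against 22.4% and 32.6% of all genes. The median log2 ratio was 1.47, against -0.16 for all genes. Sox11 itself stayed within 2-fold in this comparison (0.54). The median sustentacular sum was 7798 CPM per reference cell and 0 in this sort, and its part in the list was not tested. Tubb3, the neuronal tubulin, had mean levels of 2012, 1906 and 1890 CPM in the 3 Neurog1 sorts, 630 in the OMP sort at 14 days, 418.6 in engrafted cells and 611 in the reference. Between the Neurog1 sorts only Tead2, a factor of the Hippo pathway, was called, higher at 5 days (5.99 CPM) than uninjured (0.995) or 14 days (2.12). In engrafted cells over the OMP sort at 14 days 0 were higher and 3 of 6 lower, against 21.7% and 35% of all genes. The 3 were Dcx (700 against 1829 CPM), Stmn1 (294.4 against 1641) and Stmn3 (140.98 against 286.3). The median of the 6 was -0.91, against -0.34 for all genes. In the OMP over the Neurog1 sort at 14 days Stmn1 was higher and Tubb3 lower, of 6, against 32.4% and 28.6% of all genes.

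Of 15 factors associated with Sox2 in progenitors, 13 were measured in the uninjured Neurog1 sort over the reference. Of these, 7 were lower (Pax6, Hes1, Notch2, Id1, Otx2, Lgr5 and Trp63) and 1 higher (Meis1), against 32.6% and 22.4% of all genes. The median was -2.99, against -0.16 for all genes. Hes1 was found in 0 of 46 sorted cells and in 46 reference cells. Notch2, a Notch receptor, had means of 0.488 and 194.9 CPM. At 14 days over uninjured 6 of 9 were higher, against 22% of all genes (Notch1, Id1, Id3, Otx2, Meis1 and Kit) and 1 lower, with a median of 1.18 against -0.17 for all genes. At 5 days over uninjured 4 of 11 were higher and 1 lower, against 20.9% and 26.3% of all genes. At 14 over 5 days 4 of 11 were higher and 3 lower, against 23.8% and 27.1%. In engrafted cells over the OMP sort 6 of 9 were higher, against 21.7% of all genes, and 0 lower, led by Pax6, the eye and olfactory placode factor, at 73.1 against 3.39 CPM, found in 2 of 29 and 2 of 42 cells. In the OMP over the Neurog1 sort at 14 days 7 of 10 were lower and 2 higher, against 28.6% and 32.4% of all genes. Several of these genes are also known from supporting or basal cells, and the sustentacular sum moved with them in the first comparison, where its part was not tested.

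Of 15 proneural and neuronal lineage factors, 13 were measured in the uninjured Neurog1 sort over the reference. Of these, 7 were higher and 1 lower, against 22.4% and 32.6% of all genes. The median was 1.31, against -0.16 for all genes. Neurog1 had means of 42.2 and 1.87 CPM, Insm1, a zinc finger factor of newborn neurons, 113.8 and 45.4, and Lhx2, a factor of olfactory neuron specification, 888 and 227.2. The sort was gated on Neurog1-eGFP, so Neurog1 on this list is no separate result, here or against the OMP sort. The part of the gate and of the sustentacular RNA of the reference in the other factors was not tested. At 5 and 14 days over uninjured, 2 and 2 of 13 were higher (20.9% and 22% of all genes) and 1 and 0 lower (26.3% and 29.9%). In the OMP over the Neurog1 sort at 14 days 8 of 13 were lower and 2 higher, against 28.6% and 32.4% of all genes. The median there was -1.53, against 0.04 for all genes. In engrafted cells over the OMP sort 1 of 10 was higher and 2 lower, against 21.7% and 35% of all genes.

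Few other Sox genes were measurable. Of the 20, 7 were measured in the uninjured Neurog1 sort over the reference. Sox12, the last SoxC gene, was found in 6 of 46, 7 of 48 and 1 of 25 Neurog1 cells (means 12.8, 66.4 and 8.79 CPM), in 9 of 42 OMP cells at 14 days (35.6 CPM), in 1 of 29 engrafted cells and in 17 reference cells. Sox21, a SoxB2 factor, was found in 27 reference cells (30.6 CPM), 2 of 46 uninjured Neurog1 cells and 0 of 48, 25, 42 and 29 cells of the other sorts. Sox13, a SoxD factor, was found in 19 reference cells (18.5 CPM) and in 3 of 25 Neurog1 cells at 14 days (64.8 CPM).

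Pairs of the 4 genes met in few cells. In the 3 Neurog1 sorts together, Sox2 was found in 5 and Sox9 in 4, and none held both. All 5 Sox2 cells, 8 Sox4 cells and 4 Sox9 cells held Sox11, which was missing from only 1 cell of these sorts. In the reference without the 9 libraries, 9 cells held Sox2 and Sox9, which is 9 of 34 Sox2 cells (26.5%) and 9 of 20 Sox9 cells. Among the 95 cells without Sox2, 11 held Sox9 (11.6%). Sox11 was found there in 19 of the 34 Sox2 cells (55.9%) and in 53 of the 95 cells without Sox2 (55.8%), close to the same share.

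The genes most alike in level across the kept cells of all groups were found by Spearman's rho among 7162 genes. All cells share these groups, runs and depths, so rho mixes differences between groups with those within them, and library depth itself had a rho of 0.33 with Sox11. For Sox11 they were Marcks, a substrate of protein kinase C in growing neurites (0.66), Tubb5, a tubulin (0.61), Gng8 (0.59), Mex3a, an RNA-binding protein (0.57), and Stmn1 (0.56). Within the 3 Neurog1 sorts Marcks gave 0.46, Mex3a 0.58, Tubb5 0.28 and Gng8 0.24, and Stmn1 did not follow Sox11 there. The lowest were Myo6 (-0.53), S100a5, a calcium-binding protein of mature olfactory neurons (-0.50), and Omp (-0.48).

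For Sox2 the most alike were Acnat1, an acyltransferase (0.66), Tcf7l2, a Wnt effector, Krt18, a simple epithelial keratin, Rbm47, an RNA-binding protein, and Nadkd1 (0.63 each). Within the reference they gave 0.49, 0.43, 0.49, 0.46 and 0.63. For Sox9 they were Met, a growth factor receptor (0.44), Spry1 (0.43), Runx1 (0.41), Ier3 (0.40) and Eya1 (0.40), all between -0.05 and -0.02 in the Neurog1 sorts. For Sox4 the highest, Cd24a, a surface glycoprotein, reached 0.38, and 0.27 without the 9 libraries. In counts as sparse as those of Sox4 and Sox9 such values are weak and are given only as a description.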

How the data were processed

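The authors deposited a count table and an FPKM table for 469 single-cell libraries. The build, mm9, and the tools come from the submitters' processing notes, which name Cuffnorm, Cufflinks 2.2.1, STAR 2.5.2a and FastQC. What each tool did, its settings and the annotation are not given in the sources used here. Values in the deposited count table are scaled signal rather than raw counts: 99.4% of its values above 0 are not whole and its columns sum to like totals, so no count model was used. The FPKM values are as the authors deposited them. Fragments were recovered per library as multiples of the smallest step (tolerance 0.02, median 98.4% of values whole). 27 entries named as dates (0.418% of signal) were left out, and CPM was computed on the rest. Libraries with fewer than 1000 genes at a value of 1 or more (141) were left out. Group ratios are log2 of mean CPM + 1, for genes with a mean of 5 CPM or more in either group. Shares carry exact Clopper-Pearson 95% intervals, and 0 of n allows 3 counts of n. Clustering used 2000 genes without Sox genes, 20 principal components, Ward linkage and 12 clusters. A cluster was named X-like from marker lists. No doublet caller was run. The genes most alike were the 5 of highest Spearman rho among those found in at least 10% of cells, and list genes were named at a mean of 10 CPM or more in a group described, apart from Tead2, Trp63 and the Sox genes, which were named after their values were seen. Members and lists were chosen with earlier results of these data known. Scripts ran in Python 3.11.15 with numpy 2.4.6, pandas 2.3.3, scipy 1.17.1, scikit-learn 1.9.0 and matplotlib 3.10.9, and were tested on simulated data. Alternatives covered the pseudocount, summed fragments, the gene minimum, the limit for found, thinning to 100000 fragments, runs, the 9 libraries and the highest cells.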

Additional observations from a re-analysis of the deposited data

Results flagged for a closer look

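The libraries with fewer than 1000 genes entered no comparison, yet held these genes. Sox11 was found at 10 CPM or more in 45 of them, Sox2 in 8, Sox4 in 2 and Sox9 in 2. Of the 8 libraries with Sox2, 7 were reference and 1 engrafted, and the libraries with Sox4 or Sox9 were all reference. The highest Sox11 value was 461990 CPM, in an engrafted library. Median depth of these libraries was 47385 fragments, and 4843 in the 60 engrafted ones, so 1 fragment often exceeds 10 CPM there.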

How the results depend on the processing

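Each ratio and share was recomputed with 1 choice changed. Among the ratios, 10 fell back within 2-fold, 11 newly passed it, 4 reversed, 2 moved and the rest kept direction and side of 2-fold. Among the shares, 84 stayed within their interval and 24 left it. No paired analysis was possible because the numbers in the labels are unique to each cell and no result comes from a test. The ratios of Sox2, Sox4 and Sox9 turn on 1 or a few cells. Depth decides the call in 6 cells, where 1 fragment exceeds 10 CPM.

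Uninjured Neurog1 over reference: Sox2 was -1.87 from summed fragments, -4.86 with at least 2000 genes, -1.25 with all libraries, -4.45 without the highest cell and -3.06 without the clusters with sustentacular markers, which also drops the highest uninjured cell. Sox4 was 1.96 against run 2 and 1.56 without libraries over 10000 genes, and Sox11 was 2.32 against run 1. At 5 days over uninjured, Sox2 was -0.25 with at least 2000 genes and -0.21 without the highest cell, and a pseudocount of 10 gave -0.69 for Sox4 and -0.64 for Sox9. At 14 days over uninjured, Sox2 was 3.36 with 2000 genes and 1.34 without the highest cell, Sox4 was -0.63 with a pseudocount of 10, and Sox9 was 0.64 with it, 0.81 from summed fragments, 0.66 without the highest cell and -0.93 with 2000 genes. At 14 over 5 days Sox2 was 0.98 with a pseudocount of 10. In engrafted over OMP at 14 days, Sox2 was 0.55 with a pseudocount of 10, -0.30 with 2000 genes and -0.27 without the highest cell, Sox9 was -0.35 with 2000 genes, and Sox11 was 1.22 with 2000 genes and 1.65 with all libraries. In OMP over Neurog1 at 14 days Sox11 was -1.06 with all libraries.

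Shares moved as follows. A limit of 50 CPM gave 4.35% for Sox4 in uninjured Neurog1 cells and 0% for Sox2 and Sox4 at 5 days and for Sox4 at 14 days and in the OMP sort at 14 days. In the reference it gave 16.7% for Sox2 and 3.62% for Sox4. A limit of 1 CPM gave 100% for Sox11 in uninjured cells, 12.5% for Sox4 at 5 days, and 42.03% for Sox2 and 74.6% for Sox11 in the reference. At least 2000 genes gave 100% for Sox11 in uninjured cells (100% thinned too), 0% for Sox2 at 5 days, 0% for Sox2, Sox4 and Sox9 in engrafted cells, and 35.2% for Sox2 in the reference. Reference run 1 gave 19.1% for Sox2, 16.2% for Sox4 and 48.5% for Sox11, run 2 gave 2.86% for Sox4 and 68.6% for Sox11, and leaving out the 9 libraries gave 3.88% for Sox4. The cause was not tested, beyond the fewer cells that the stricter settings leave.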
